A study of Mus musculus with 16 samples.

Results

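The 7 transcripts that mark injured kidney tubule were followed library by library in mouse kidney after rhabdomyolysis: Havcr1, Lcn2, Clu, Spp1, Lgals3, Anxa2 and Tnfrsf12a. They were taken by gene symbol from a matrix of 20525 genes, in which each of the 7 has 1 row. Kidneys came from mice aged 8 weeks, of a background the labels spell C56BL/6, in 4 groups of 4 libraries: C3-/- mice given glycerol, WT mice given glycerol, C3-/- mice given PBS and WT mice given PBS. Glycerol was given as 7.5 ml/kg of a 50% solution into a thigh muscle, where it destroys muscle fibres and sends heme proteins to the kidney, and RNA was taken from frozen sections 30 µm thick. C3 is the complement protein on which the activation routes of complement meet, and the labels give C3-/- as the whole genotype, with no word on which part of the gene is missing. Sex and time after injection are not in the labels. Nor do the labels say that libraries come from separate animals, so a p-value here speaks of the scatter among these libraries, and that scatter may be technical.

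A tubule cell that has been hurt changes what it shows and what it secretes. Havcr1 encodes KIM-1, a surface receptor for phosphatidylserine that lets tubule cells take up dead neighbours, and Tnfrsf12a encodes Fn14, the receptor for the cytokine TWEAK. Lcn2 encodes the iron-siderophore carrier NGAL, Clu the extracellular chaperone clusterin, Spp1 the phosphoprotein osteopontin, Lgals3 the galactoside-binding lectin galectin-3, and Anxa2 a calcium-dependent membrane-binding annexin that pairs with S100a10. Several of the proteins are measured in urine as signs of kidney injury. On build GRCm38, with gene bounds from GENCODE M21, Havcr1 lies at chr11:46735080-46779578 (plus strand), Tnfrsf12a at chr17:23675445-23677468 (minus), Lcn2 at chr2:32384633-32388252 (minus) and Clu at chr14:65968483-65981547 (plus). Spp1 lies at chr5:104435118-104441050, Lgals3 at chr14:47367751-47386160 and Anxa2 at chr9:69453620-69491795, all on the plus strand. Reads were summed per gene, so the values speak for whole genes and not for single exons.

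Values are read counts that the authors normalized, called normalized counts below. Their library totals ran from 25.81 to 38.39 (in units of 1e6), and the read depth is unknown. The library descriptions end in running numbers that go from 1 to 13 over 13 libraries, called list 1 here, and 3 glycerol libraries repeat numbers of that run, called list 2 here: C3-/- replicates 1 and 3 and WT replicate 4. What the lists stand for is not stated. The list 2 libraries stood apart, with 750 to 3374 genes listed at 0 against 190 to 540 in list 1, and with scores from -220.4 to -96.4 on the first principal component against -39.5 to 58.6 in list 1. The tests of the 7 members and the counts of the gene lists are therefore also given within the 13 libraries of list 1. The Y-linked gene Ddx3y reached 100 normalized counts in 4 of 4 WT glycerol libraries and 4 of 4 WT PBS libraries. In C3-/- kidney it did so in 2 of 4 glycerol libraries (replicates 3 and 4) and 1 of 4 PBS libraries (replicate 4). The C3 gene itself had 1457 to 8008 normalized counts in C3-/- glycerol libraries, 1712 to 4718 in WT glycerol libraries, 564 to 1139.7 in C3-/- PBS libraries and 335 to 471 in WT PBS libraries. A gene total cannot check a genotype whose deleted part is not given, so C3-/- stands throughout for libraries labelled so. Kidney identity was plain in all groups: 7 proximal tubule markers summed to 51543 to 241205 normalized counts in C3-/- glycerol libraries, 18928 to 88012 in WT glycerol libraries, 208885 to 286449 in C3-/- PBS libraries and 211105 to 248004 in WT PBS libraries. The highest of these sums in C3-/- glycerol libraries was that of replicate 3, and its markers did not move together. Slc34a1 (158390.4), Slc5a2 and Slc22a6 lay above all C3-/- PBS libraries there. Lrp2, Cubn, Slc5a12 (422, against 8892 to 12467 after PBS) and Aqp1 lay below them. In bulk tissue, fewer cells of a type and less RNA per cell cannot be told apart.

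After glycerol 5 of 7 transcripts rose in kidney labelled C3-/-, and all 7 rose in WT kidney. With all 16 libraries 6 of 7 were lower in C3-/- than in WT kidney after glycerol, the exception being Tnfrsf12a. After PBS none was called between the genotypes in that fit. Fits of only the 2 groups compared called 2 members lower after glycerol (Havcr1 and Anxa2) and 1 higher after PBS (Lgals3). The difference between the glycerol responses of the genotypes passed the test for Anxa2 alone, and for 5 members within list 1. The plot of normalized counts by library shows how far apart the groups lay.

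**Figure D1:**
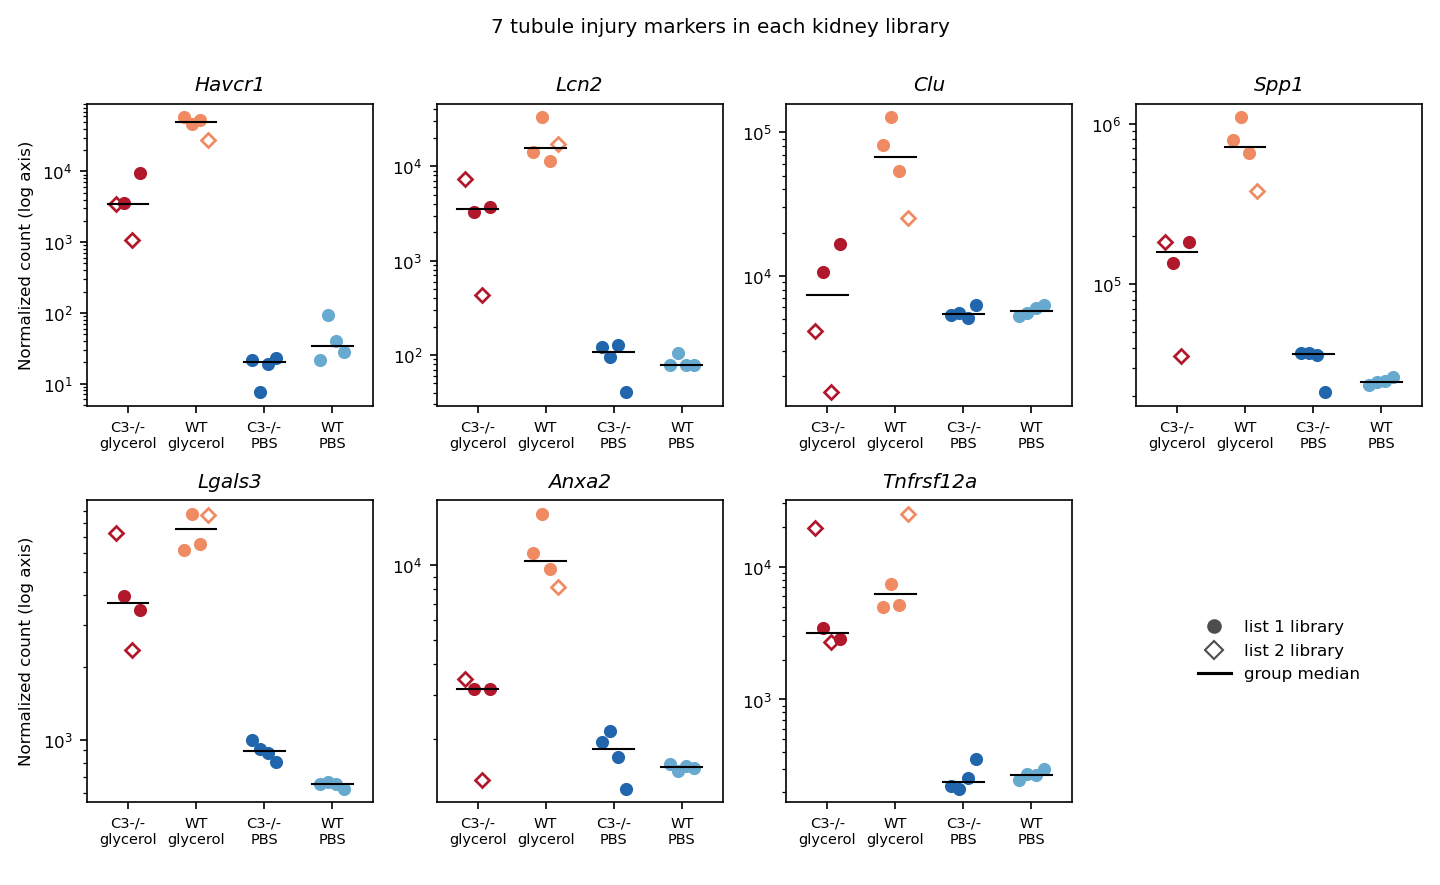
Normalized count of each of the 7 transcripts (vertical log axis) in each library of the 4 groups; filled circles are list 1 libraries, open diamonds list 2 libraries, and the line is the group median. C3-/- glycerol replicate 3 was the lowest of its group in all 7 panels, and every WT glycerol library lay above every WT PBS library.

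Per kilobase of exon the 7 transcripts differed by orders of magnitude, and glycerol reordered them. Spp1 was the highest in each group, with a mean of 81342 ± 42118 normalized counts per kilobase in C3-/- glycerol kidney, 440867 ± 179584 in WT glycerol kidney, 20003 ± 4786 in C3-/- PBS kidney and 15007 ± 679 in WT PBS kidney (SD, n = 4 each). Among all 20525 genes ordered by this mean level per kilobase it was number 24, 8, 35 and 56 in those groups. In C3-/- glycerol kidney Havcr1 was at 1901 ± 1543 per kilobase and place 702, and all neighbours below Spp1 in the order overlapped there. In WT glycerol kidney it was number 3 of the 7, at 20015 ± 5647 per kilobase and place 47 of all genes, and its libraries overlapped those of Clu above it (20928 ± 12618) and of Lcn2 below it (7207 ± 3653). Havcr1 was the lowest of the 7 in both PBS groups, at 7.62 ± 3.0 per kilobase in C3-/- and 19.9 ± 14.4 in WT kidney, places 15905 and 13400 among all genes. In PBS kidney Clu came second in both genotypes, and no library of Clu overlapped Anxa2 or Lgals3 below it.

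Together the 7 transcripts made up 0.12% to 0.81% of the normalized signal in C3-/- glycerol libraries and 1.28% to 4.99% in WT glycerol libraries, against 0.09% to 0.16% in C3-/- PBS libraries and 0.1% to 0.11% in WT PBS libraries. Spp1 alone took 70.9% to 82.8% of that sum in every library. Its own share of a library's signal reached 0.67% in C3-/- glycerol kidney and 4.09% in WT glycerol kidney.

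Of the surface receptors, Havcr1 showed the steepest change. In C3-/- glycerol kidney it had 3449.7, 3579, 1088 and 9458 normalized counts, and in WT glycerol kidney 57981, 46259, 52729 and 28049. In C3-/- PBS kidney it had 21.7, 7.52, 18.7 and 22.6, and in WT PBS kidney 21.5, 94.5, 40.2 and 28.0. The glycerol and PBS libraries were far apart in both genotypes, and the highest C3-/- glycerol library lay below the lowest WT glycerol library. On the log2(normalized count + 1) scale Havcr1 rose by 7.60 ± 0.57 in C3-/- kidney (SE; limma, adjusted p = 5.11e-06), a fold of 194 and number 3 of the 18035 genes tested by size of rise. In WT kidney it rose by 10.12 ± 0.57 (limma, adjusted p = 1.8e-07), a fold of 1120 and number 1 by size of rise. Within list 1 the rises were 8.39 ± 0.55 in C3-/- kidney (limma, adjusted p = 2.02e-06) and 10.35 ± 0.49 in WT kidney (limma, adjusted p = 2.58e-08). After glycerol the C3-/- level was -3.73 ± 0.57 relative to WT (limma, adjusted p = 0.000706), and the responses differed by -2.52 ± 0.81, which was not called (limma, adjusted p = 0.215). Those 2 differences were, within list 1, -3.16 ± 0.58 (limma, adjusted p = 0.002) and -1.95 ± 0.74 (limma, adjusted p = 0.108).

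Tnfrsf12a, the TWEAK receptor, behaved otherwise. It had 19468, 3448, 2692 and 2865 normalized counts in C3-/- glycerol kidney, and 4979.7, 7379.5, 5185 and 25092 in WT glycerol kidney. PBS kidney held 223, 213, 255 and 355 in C3-/- mice, and 246, 273, 270.1 and 297 in WT mice. The glycerol groups overlapped, with 1 list 2 library of each far above the rest, and every glycerol library exceeded every PBS library. Tnfrsf12a rose by 4.21 ± 0.57 on the log2 scale in C3-/- kidney (limma, adjusted p = 0.00062) and by 4.94 ± 0.57 in WT kidney (limma, adjusted p = 3.84e-05). Within list 1 the rises were 3.61 ± 0.20 in C3-/- kidney (limma, adjusted p = 4.42e-07) and 4.40 ± 0.18 in WT kidney (limma, adjusted p = 1.01e-08). C3-/- and WT glycerol kidney differed by -0.80 ± 0.57 (limma, adjusted p = 0.426), which was not called. Within list 1 the 2 C3-/- glycerol libraries held 2865 and 3448 normalized counts, below the 4979.7 to 7379.5 of the 3 WT glycerol libraries, and the difference of -0.87 ± 0.21 was called (limma, adjusted p = 0.00901). Leaving out C3-/- glycerol replicate 1 alone gave -1.48 ± 0.42 (limma, adjusted p = 0.0354). The responses themselves did not pass the test with all libraries (-0.72 ± 0.81, limma, adjusted p = 0.905) or within list 1 (-0.79 ± 0.27, limma, adjusted p = 0.0763).

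Among the secreted proteins, the transcript of Lcn2 rose strongly in both genotypes. It had 7394, 3303, 436 and 3737 normalized counts in C3-/- glycerol kidney, and 14177, 32840.5, 11427 and 17169.5 in WT glycerol kidney. In C3-/- PBS kidney it had 120.3, 94.5, 129 and 40.3, and in WT PBS kidney 78.9, 105, 78.9 and 79.3. No C3-/- glycerol library reached the lowest WT glycerol library, and the lowest of them, replicate 3, was still above all C3-/- PBS libraries. The rise was 4.82 ± 0.65 in C3-/- kidney (limma, adjusted p = 0.000608), a fold of 28.3, and 7.66 ± 0.65 in WT kidney (limma, adjusted p = 3.35e-06), a fold of 203. Within list 1 it was 5.31 ± 0.44 in C3-/- kidney (limma, adjusted p = 1.08e-05) and 7.67 ± 0.39 in WT kidney (limma, adjusted p = 4.41e-08). After glycerol the C3-/- level was -2.79 ± 0.65 relative to WT (limma, adjusted p = 0.0115), and -2.31 ± 0.47 within list 1 (limma, adjusted p = 0.00339). The difference in response was -2.84 ± 0.92 (limma, adjusted p = 0.221) with all libraries and -2.36 ± 0.59 (limma, adjusted p = 0.0279) within list 1. Neutrophils also carry the Lcn2 protein, and the sum of their markers moved with the groups. The 7 of 12 markers analysed here summed to 81 to 241 normalized counts in C3-/- glycerol libraries and 534 to 1204 in WT glycerol libraries. The sums were 50.1 to 76.4 in C3-/- PBS libraries and 165 to 245 in WT PBS libraries. Ltf, 1 of these 7, did not rise with the sum in WT kidney. It had 8.59, 9.96, 8.83 and 0.0 in WT glycerol libraries and 8.77, 10.8, 17.9 and 18.8 in WT PBS libraries. None of the 7 was at 0 in all libraries of a group, and their part in the Lcn2 result was not tested. After PBS those marker sums were lower in every C3-/- than in every WT library. Lcn2 after PBS overlapped between the genotypes (0.05 ± 0.65, not called by limma), and a link between the marker sums and Lcn2 was not tested in either treatment.

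Clu, clusterin, was already well expressed after PBS. It had 4091, 10547, 1533 and 16704 normalized counts in C3-/- glycerol kidney, and 81202, 127200.3, 54125 and 25195 in WT glycerol kidney. The PBS values were 5306, 5456, 5032 and 6200.4 in C3-/- kidney, and 5234, 5455, 5957 and 6208 in WT kidney. Of the C3-/- glycerol libraries, replicates 1 and 3 of list 2 were below the PBS range and replicates 2 and 4 of list 1 above it, whereas all WT glycerol libraries were above it. In C3-/- kidney glycerol and PBS differed by 0.07 ± 0.59 (limma, adjusted p = 0.945) with all libraries, and 1.28 ± 0.26 (limma, adjusted p = 0.00461) within list 1. Clu rose by 3.43 ± 0.59 in WT kidney (limma, adjusted p = 0.00079), a fold of 10.7, and by 3.85 ± 0.23 within list 1 (limma, adjusted p = 1.38e-07). C3-/- kidney had -3.41 ± 0.59 relative to WT after glycerol (limma, adjusted p = 0.00171), and -2.63 ± 0.28 within list 1 (limma, adjusted p = 5.04e-05). The difference in response was -3.35 ± 0.84 (limma, adjusted p = 0.101) with all libraries and -2.58 ± 0.35 (limma, adjusted p = 0.00178) within list 1.

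Spp1 was abundant before injury and rose further. It had 183206, 135040, 35565 and 182393 normalized counts in C3-/- glycerol kidney, and 784466, 1091026, 652031 and 378675 in WT glycerol kidney. In C3-/- PBS kidney it had 37392, 37184, 36121 and 21164, and in WT PBS kidney 23499, 24401, 24839 and 26184. C3-/- glycerol replicate 3 lay inside the range of the C3-/- PBS libraries, the other C3-/- glycerol libraries lay above it, and all 4 fell short of the lowest WT glycerol library. In C3-/- kidney Spp1 rose by 1.81 ± 0.47 (limma, adjusted p = 0.0345), a fold of 3.51, a call that was lost in 11 of 16 fits without 1 library (limma, adjusted p up to 0.115). Within list 1 that rise was 2.29 ± 0.26 (limma, adjusted p = 9.58e-05). Spp1 rose by 4.78 ± 0.47 in WT kidney (limma, adjusted p = 9.79e-06), a fold of 27.4, and by 5.06 ± 0.23 within list 1 (limma, adjusted p = 1.91e-08). After glycerol C3-/- kidney had -2.59 ± 0.47 relative to WT (limma, adjusted p = 0.00219), or -2.39 ± 0.28 within list 1 (limma, adjusted p = 9.64e-05). The responses differed by -2.97 ± 0.66 (limma, adjusted p = 0.0643), or -2.77 ± 0.35 within list 1 (limma, adjusted p = 0.00123). Another annotated gene on the same strand, Gm42793, overlaps exons of Spp1, so the split of reads between the pair is uncertain.

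Lgals3 had the smallest called difference between the genotypes after glycerol. It had 7289, 3962, 2360 and 3477 normalized counts in C3-/- glycerol kidney, and 6202, 8760.2, 6523 and 8650.5 in WT glycerol kidney. PBS kidney held 999, 917, 877 and 803 in C3-/- mice, and 649, 667, 654 and 624 in WT mice. The glycerol groups overlapped through C3-/- replicate 1, a list 2 library, and both lay above all PBS libraries, while the PBS groups themselves did not overlap. Lgals3 rose by 2.13 ± 0.25 in C3-/- kidney (limma, adjusted p = 0.000244) and by 3.52 ± 0.25 in WT kidney (limma, adjusted p = 9.38e-07). Within list 1 the rises were 2.05 ± 0.13 in C3-/- kidney (limma, adjusted p = 1.37e-06) and 3.45 ± 0.11 in WT kidney (limma, adjusted p = 2.53e-09). After glycerol C3-/- kidney had -0.92 ± 0.25 relative to WT (limma, adjusted p = 0.0283). That call was lost without any of 4 single libraries: C3-/- glycerol replicate 2 (adjusted p = 0.0514), replicate 3 (0.0752) or replicate 4 (0.0576), or WT glycerol replicate 2 (0.0851), all by limma. Within list 1 it was -0.93 ± 0.13 (limma, adjusted p = 0.000431), and the difference in response was -1.40 ± 0.17 (limma, adjusted p = 0.00099) there, against -1.39 ± 0.36 (limma, adjusted p = 0.115) with all libraries. After PBS, Lgals3 was 0.47 higher in C3-/- kidney on the log2 scale, with an SE of 0.25 and an adjusted p of 0.619 by limma over all libraries, and with an SE of 0.10 and an adjusted p of 0.00954 within list 1. With list and Y-linked transcripts as terms this PBS difference was 0.01 ± 0.24 (limma, adjusted p = 0.991).

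Anxa2 was the 1 member whose glycerol response was called different with all libraries. It had 3489.6, 3185, 1367 and 3189 normalized counts in C3-/- glycerol kidney, and 11217, 16126, 9650.1 and 8201 in WT glycerol kidney. In C3-/- PBS kidney it had 1938, 2160.1, 1694 and 1264, and in WT PBS kidney 1594, 1493, 1564 and 1529. All WT glycerol libraries stood clear of the other 3 groups, and C3-/- glycerol replicate 3 lay within the C3-/- PBS range. In C3-/- kidney glycerol and PBS differed by 0.61 ± 0.28 (limma, adjusted p = 0.197), or 0.88 ± 0.20 within list 1 (limma, adjusted p = 0.00864) and 0.92 ± 0.22 without replicate 3 alone (limma, adjusted p = 0.0189). Anxa2 rose by 2.82 ± 0.28 in WT kidney (limma, adjusted p = 1.18e-05), a fold of 7.08, and by 2.96 ± 0.18 within list 1 (limma, adjusted p = 1.42e-07). After glycerol C3-/- kidney had -2.05 ± 0.28 relative to WT (limma, adjusted p = 0.00027), called in each of the 16 fits without 1 library, and -1.92 ± 0.21 within list 1 (limma, adjusted p = 7.6e-05). The difference in response was -2.21 ± 0.40 (limma, adjusted p = 0.0214), and -2.08 ± 0.27 within list 1 (limma, adjusted p = 0.00143). It was called in 8 of 16 fits without 1 library, with an adjusted p of up to 0.0674 in the others. An antisense gene, Gm16144, overlaps exons of Anxa2 on the opposite strand, and without a stated strand setting their reads cannot be told apart.

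Upstream sequence is shown for Anxa2, the member whose difference in response was called with all libraries, and for Tnfrsf12a, the member not called between the genotypes after glycerol. Both stretches come from RefSeq on build GRCm38.p6, run 5′ to 3′ on the gene's strand, start 250 bases before the RefSeq start and stop where the first annotated exon begins. Capitals mark matches to the letters searched.
Anxa2, chr9:69453433-69453619, plus strand: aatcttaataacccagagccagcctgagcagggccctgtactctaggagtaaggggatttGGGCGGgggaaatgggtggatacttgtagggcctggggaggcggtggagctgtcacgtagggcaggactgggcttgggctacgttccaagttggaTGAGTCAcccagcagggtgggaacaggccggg
Tnfrsf12a, chr17:23677469-23677699, minus strand: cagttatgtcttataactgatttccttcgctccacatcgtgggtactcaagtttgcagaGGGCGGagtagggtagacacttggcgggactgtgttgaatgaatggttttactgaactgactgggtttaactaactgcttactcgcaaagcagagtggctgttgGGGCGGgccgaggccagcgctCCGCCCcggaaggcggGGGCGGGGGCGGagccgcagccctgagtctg
The search covered both strands of the 250 bases for the 4 members with a single start in the table (Lcn2, Lgals3, Anxa2 and Tnfrsf12a). Havcr1 and Spp1, which have several starts, and Clu were not searched. Anxa2 holds TGAGTCA, a match to the AP-1 letters TGANTCA, 95 bases before its start, and the other 3 hold none, against 6.75% of all 32851 promoter windows. The GC box GGGCGG lies in all 4, against 32.7% of windows, with 5 matches in Tnfrsf12a and 3 in Anxa2. TATAAA (12.4% of windows) lies in Anxa2 alone, at 17 bases before the RefSeq start and like the nearest GC boxes of Anxa2, inside an exon of GENCODE M21, and is therefore not printed. The TEAD letters GGAATG (12.6%), the STAT letters TTCNNNGAA (7.02%), the cAMP response element TGACGTCA (1.55%), the NF-kB motif (3.9%) and the CArG box (1.47%) were found in none of the 4. No match overlapped another, and each is a run of letters, not a shown binding site.

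The share of all genes called is given beside each count of members. In C3-/- kidney 5 of 7 members were called higher after glycerol, where 3.68% of the 18035 genes tested were called higher, and 4 had groups that did not overlap, against 9.53% of genes. The members' median log2 difference there was 2.13, against -0.06 over all genes tested. In WT kidney all 7 were called higher, against 12.5% of genes, and all 7 had groups that did not overlap, against 18.2%. The members' median there was 4.78, against -0.11 over all genes. Within list 1 all 7 were called higher in both genotypes, against 12.4% of genes in C3-/- and 26.7% in WT kidney. Both responses are set against different PBS libraries, so the values above come from separate samples.

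Between the genotypes after glycerol, 6 of 7 members were called lower in C3-/- kidney, against 4.85% of genes, and 5 had groups that did not overlap, against 5.07%. Their median log2 difference was -2.59, against 0.04 over all genes. Within list 1 all 7 were called lower, against 14.6% of genes. Within the libraries that carry Y-linked transcripts, 2 C3-/- and 4 WT after glycerol, the same comparison gave differences from -3.80 ± 0.80 for Havcr1 to -1.38 ± 0.23 for Lgals3 among the 6 called, with adjusted p between 0.00696 and 0.0455 by limma. Tnfrsf12a had -1.58 ± 0.55 there (limma, adjusted p = 0.148). Of the 2 C3-/- glycerol libraries with Y-linked transcripts, replicate 3 was the lowest of its group for all 7 members. A fit of the 8 glycerol libraries alone called 2 members, Havcr1 and Anxa2, against 0.81% of genes called lower. In that fit Lcn2 (adjusted p = 0.136), Clu (0.0724), Spp1 (0.106) and Lgals3 (0.279) were not called, all by limma.

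After PBS no member was called between the genotypes with all libraries, against 1.04% of genes higher and 1.19% lower in C3-/- kidney. None had an unadjusted p below 0.05 by limma. That fit takes its spread from the glycerol libraries too. A fit of the PBS libraries alone called 1 member, Lgals3, higher in C3-/- kidney (0.47 ± 0.07, limma, adjusted p = 0.00246). It called 12.5% of all genes higher and 12.9% lower. Only Lgals3 had groups that did not overlap, against 13.9% of genes with higher values throughout in C3-/-. Differences ran from -1.21 ± 0.57 for Havcr1 (limma, adjusted p = 0.486) to 0.47 for Lgals3, with a median of 0.05. Within list 1 Lgals3 was the 1 member called higher, against 9.29% of genes. With list and Y-linked transcripts as terms its difference was 0.01 ± 0.24 and was not called (limma, adjusted p = 0.991). Libraries that carry Y-linked transcripts include 1 of 4 C3-/- PBS libraries, so sex and genotype cannot be told apart after PBS.

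The difference in response was called lower in C3-/- kidney for 1 of 7 members, against 0.216% of genes, and for 5 within list 1, against 5.42% of genes. The estimates were negative for all 7, from -3.35 for Clu to -0.72 for Tnfrsf12a, with a median of -2.52 against 0.03 over all genes. The estimates for Lcn2, Clu, Spp1 and Lgals3 passed the test within list 1 and not with all 16 libraries. The plot of differences sets both fits side by side.

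**Figure D2:**
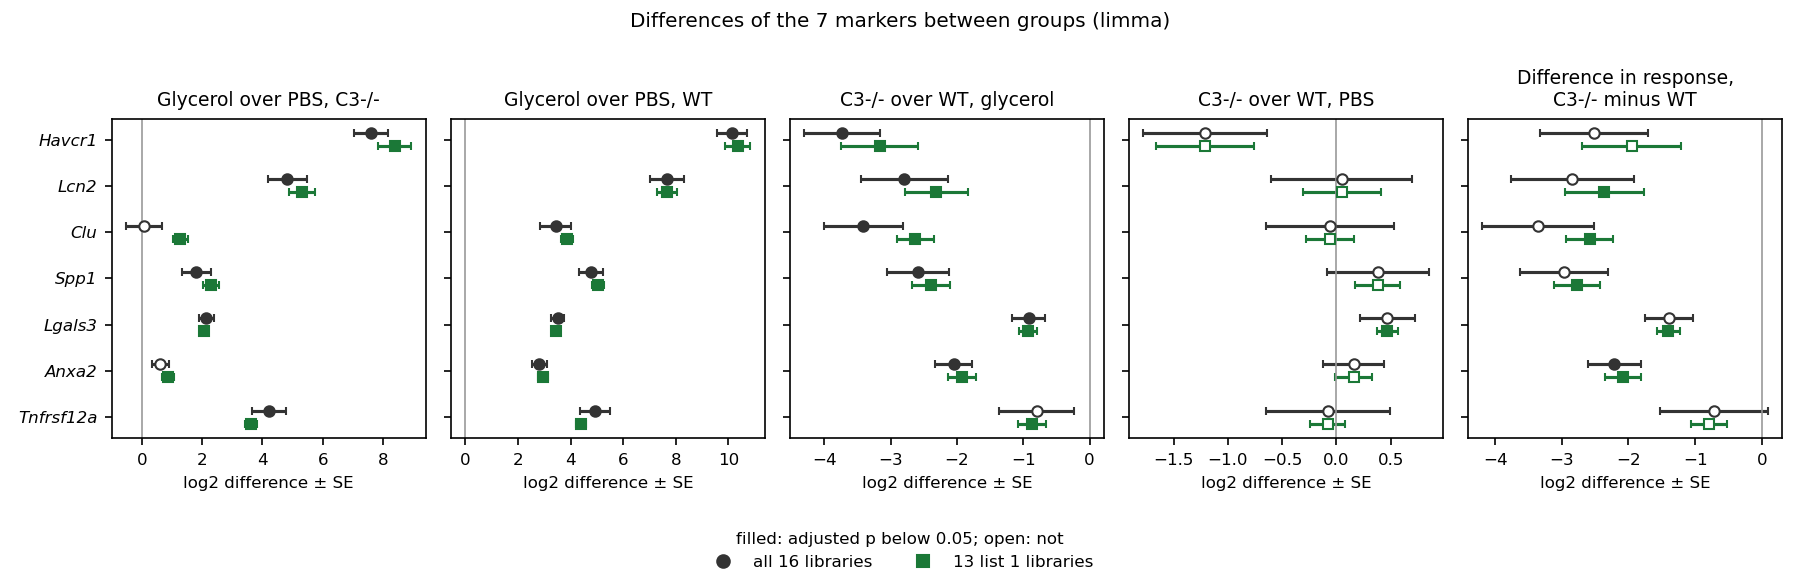
Log2 difference and its SE (horizontal axes, limma) for the 7 transcripts in 5 comparisons; circles use all 16 libraries, squares the 13 list 1 libraries, and filled symbols have an adjusted p below 0.05. Clu in C3-/- kidney was at 0.07 with all libraries and 1.28 within list 1, while the WT response reached 10.12 for Havcr1.

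The libraries of a group did not rise to the same extent, and the same libraries were high or low for several members. C3-/- glycerol replicate 3 was lowest of its group for 7 of 7 members, and it exceeded all C3-/- PBS libraries for 4 of 7, the exceptions being Clu, Spp1 and Anxa2. Replicate 1 of the same group was highest for 5 of 7, with a Tnfrsf12a level 74.4 times and a Lcn2 level 77.1 times the C3-/- PBS mean. Replicates 2 and 4, both of list 1, exceeded all C3-/- PBS libraries for 7 of 7. Among WT glycerol libraries each exceeded all WT PBS libraries for 7 of 7, replicate 2 was highest for 5 of 7, and replicate 4, of list 2, was lowest for 4 of 7 and had a Tnfrsf12a level 92.5 times the WT PBS mean. The median member of a library stood 1.4 to 3.02 log2 units above the PBS mean in C3-/- glycerol libraries and 3.94 to 4.76 units in WT glycerol libraries, which did not overlap.

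**Figure D3:**
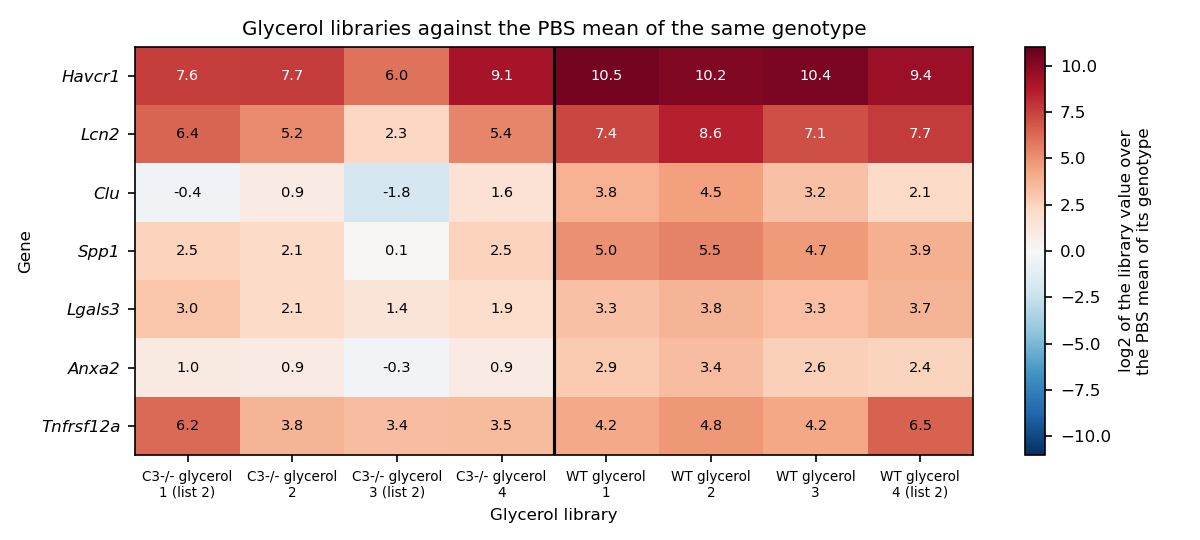
Log2 of each glycerol library's normalized count over the PBS mean of its own genotype, for the 7 transcripts (rows) in 4 C3-/- and 4 WT glycerol libraries (columns), with red above and blue below that mean. Values ran from -1.84 for Clu in C3-/- replicate 3 to 10.5 for Havcr1 in WT replicate 1.

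Spread differed among the members as well as between groups. The coefficient of variation ran from 34.6% for Anxa2 to 116% for Tnfrsf12a in C3-/- glycerol kidney, and from 18.0% for Lgals3 to 90.8% for Tnfrsf12a in WT glycerol kidney. It ran from 9.06% for Lgals3 to 41.5% for Lcn2 in C3-/- PBS kidney. In WT PBS kidney it was 2.75% for Lgals3, 2.83% for Anxa2 and 4.52% for Spp1, and 72.1% for Havcr1, whose normalized counts there were below 100. Tnfrsf12a had the highest coefficient of variation of the 7 in both glycerol groups.

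Of the TWEAK arm around Tnfrsf12a, some genes rose and others were not called. Of 9 genes of the noncanonical NF-kB arm, 3 rose in C3-/- kidney (Map3k14, Nfkb2 and Relb), against 3.68% of all genes, 6 rose in WT kidney, against 12.5%, and 4 were lower in C3-/- than in WT kidney after glycerol, against 4.85%. Within list 1 those counts were 5, 8 and 6, against 12.4%, 26.7% and 14.6% of all genes. Chuk, the kinase IKK-alpha that NIK activates, had -0.60 ± 0.49 in C3-/- kidney (limma, adjusted p = 0.426) and -0.95 ± 0.49 in WT kidney (limma, adjusted p = 0.172). Relb, the partner of p52, had 322, 299.6, 179.6 and 242 normalized counts in C3-/- glycerol kidney and 547, 621, 486 and 1089.5 in WT glycerol kidney, against 119.9 to 133 in C3-/- PBS kidney and 133 to 169 in WT PBS kidney. It rose by 1.00 ± 0.24 in C3-/- kidney (limma, adjusted p = 0.025) and by 2.12 ± 0.24 in WT kidney (limma, adjusted p = 3.35e-05), and C3-/- had -1.35 ± 0.24 relative to WT after glycerol (limma, adjusted p = 0.00209). Nfkb2, which encodes the p52 precursor, rose by 1.29 ± 0.22 in C3-/- and 1.97 ± 0.22 in WT kidney, and Map3k14, the kinase NIK that triggers p52 processing, by 0.97 ± 0.20 in C3-/- and 1.71 ± 0.20 in WT kidney, with adjusted p of at most 0.0108 by limma for all 4. Birc3, an inhibitor of apoptosis, had a difference of 0.15 ± 0.23 in C3-/- kidney (limma, adjusted p = 0.686) and rose by 1.17 ± 0.23 in WT kidney (limma, adjusted p = 0.00206). Within list 1 Birc3 rose by 0.49 ± 0.13 in C3-/- kidney (limma, adjusted p = 0.0177). The ligand gene Tnfsf12 had 1626, 606, 868 and 357 normalized counts in C3-/- glycerol kidney and 816, 804, 702 and 1644 in WT glycerol kidney, against 419 to 577 in C3-/- PBS kidney and 355 to 421 in WT PBS kidney. As for the receptor, its highest values lay in 1 list 2 library of each genotype. Tnfsf12 had 0.50 ± 0.36 in C3-/- kidney (limma, adjusted p = 0.372) and rose by 1.24 ± 0.36 in WT kidney (limma, adjusted p = 0.0213). Within list 1 Tnfsf12 had -0.18 ± 0.19 in C3-/- kidney (limma, adjusted p = 0.539) and was lower in C3-/- than in WT kidney after glycerol (-0.73 ± 0.20, limma, adjusted p = 0.0151). Among 19 other TNF receptors, 2 rose in C3-/- kidney (Tnfrsf23 and Tnfrsf9), against 3.68% of all genes, 5 rose in WT kidney, against 12.5%, and 2 were lower in C3-/- than in WT kidney after glycerol (Fas and Tnfrsf1a), against 4.85%. Within list 1 the counts were 6, 7 and 4, against 12.4%, 26.7% and 14.6% of all genes.

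**Figure D4:**
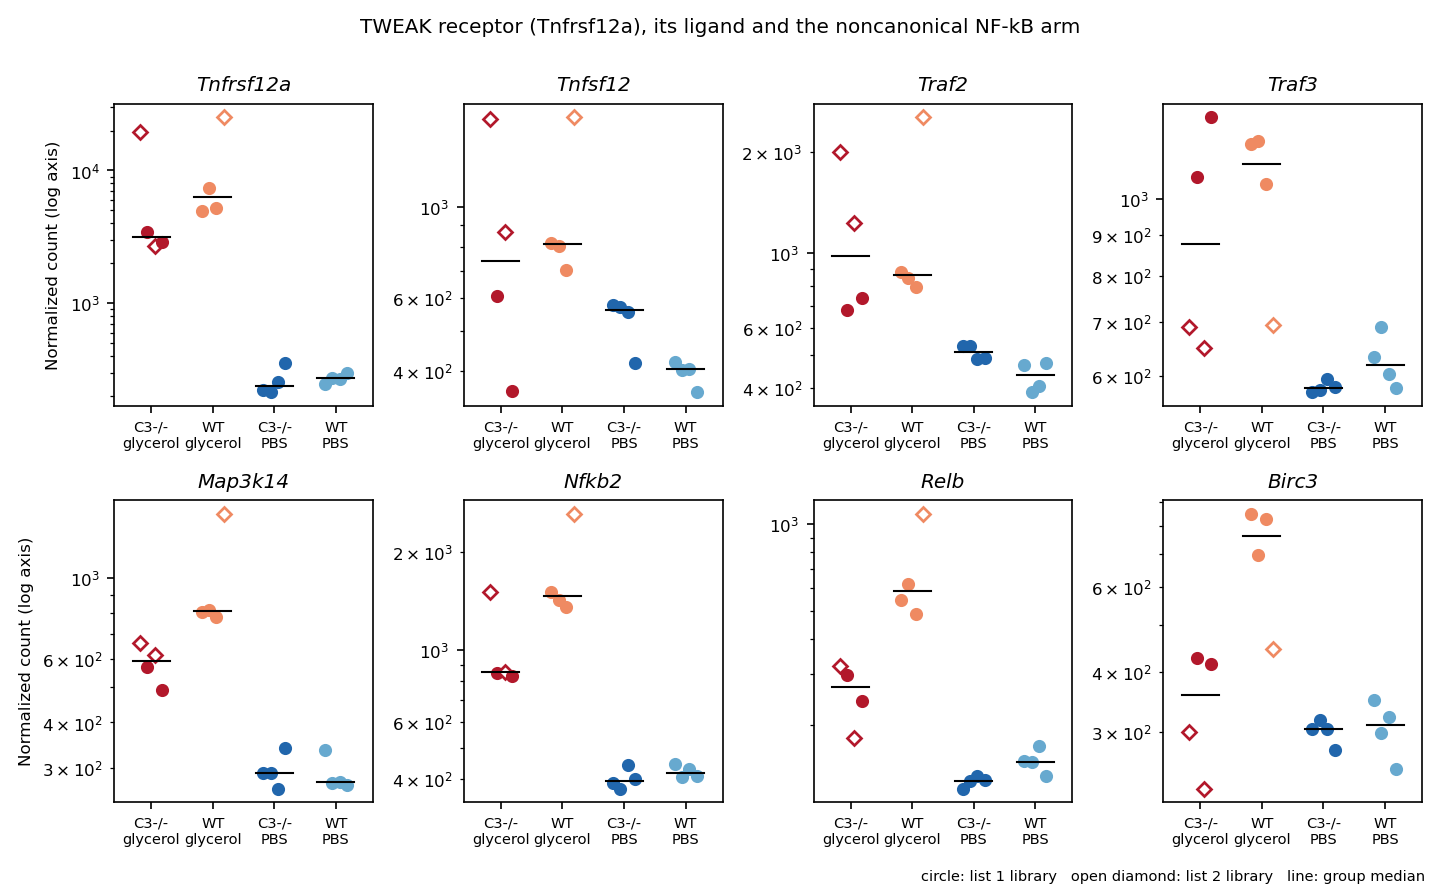
Normalized count (vertical log axes) of Tnfrsf12a, its ligand gene Tnfsf12, the adaptors Traf2 and Traf3, and Map3k14, Nfkb2, Relb and Birc3 in each library; circles are list 1, open diamonds list 2 and lines group medians. Relb lay at 179.6 to 322 in C3-/- glycerol libraries, below all WT glycerol libraries (486 to 1089.5).

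Partners and relatives of the other members moved in part. Of 22 tested genes for binding partners of the 7 proteins, 1 rose in C3-/- kidney (S100a10), where 3.68% of all genes were called higher, a share near that of the list. In WT kidney 9 rose and 1 fell, against 12.5% and 13.3% of all genes, and 2 were lower in C3-/- than in WT kidney after glycerol (Cd44 and Itgb3), against 4.85%. Within list 1, 5 rose in C3-/- kidney, 13 rose in WT kidney and 7 were lower in C3-/- than in WT kidney after glycerol. The shares of all genes called there were 12.4%, 26.7% and 14.6%. S100a10, the partner of annexin A2, rose by 1.72 ± 0.46 in C3-/- kidney (limma, adjusted p = 0.0405) and by 3.01 ± 0.46 in WT kidney (limma, adjusted p = 0.000326), and its genotype difference after glycerol of -0.89 ± 0.46 was not called (limma, adjusted p = 0.255) with all libraries, and that of -0.96 ± 0.16 within list 1 was (limma, adjusted p = 0.00118). Its list 2 libraries C3-/- replicate 1 (18299.5) and WT replicate 4 (32639) were again the highest of their groups. Cd44, a receptor for osteopontin, had 63.2, 112, 33.5 and 129 normalized counts in C3-/- glycerol kidney and 549, 823, 431 and 177 in WT glycerol kidney, a difference of -2.51 ± 0.45 (limma, adjusted p = 0.00201). Itgb3, a subunit of the osteopontin-binding integrin with Itgav, differed by -1.21 ± 0.26 (limma, adjusted p = 0.00781), and Itgav by -0.13 ± 0.39 (limma, adjusted p = 0.88), or -0.79 ± 0.17 within list 1 (limma, adjusted p = 0.00434). Lrp2, megalin, which takes up Lcn2 protein in the proximal tubule, had -1.33 ± 0.42 in C3-/- kidney (limma, adjusted p = 0.073) and fell by 2.17 on the log2 scale in WT kidney (SE 0.42, limma, adjusted p = 0.00164). Slc22a17, another Lcn2 receptor, had -0.07 ± 0.52 in C3-/- kidney (limma, adjusted p = 0.942) and -0.71 ± 0.52 in WT kidney (limma, adjusted p = 0.331). Within list 1 Slc22a17 fell by 1.00 in C3-/- kidney (SE 0.14, limma, adjusted p = 0.000373) and by 1.27 in WT kidney (SE 0.12, limma, adjusted p = 4.86e-06). Lrp8, a clusterin receptor, was the partner called between the genotypes after PBS, with 219, 228, 199.6 and 54.1 normalized counts in C3-/- kidney and 36.1, 36.3, 34.1 and 25.0 in WT kidney (2.20 ± 0.51, limma, adjusted p = 0.0356). The lowest C3-/- value, 54.1, came from the C3-/- PBS library that carries Ddx3y. After glycerol the C3-/- libraries without Ddx3y had 504 and 554, and those with it 100 and 298. Sex and genotype cannot be told apart in this PBS comparison.

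Of 14 other annexins and S100 genes, 4 rose in C3-/- kidney (Anxa3, Anxa7, S100a6 and S100a10), against 3.68% of all genes, 10 rose and 1 fell in WT kidney, against 12.5% and 13.3%, and 3 were lower in C3-/- than in WT kidney after glycerol (Anxa1, Anxa5 and Anxa7), against 4.85%. Within list 1, 7 rose in C3-/- kidney, 10 rose in WT kidney and 8 were lower in C3-/- than in WT kidney after glycerol. Of all genes 12.4%, 26.7% and 14.6% were so called there. S100a6 rose by 2.84 ± 0.55 in C3-/- kidney (limma, adjusted p = 0.00708) and by 4.03 ± 0.55 in WT kidney (limma, adjusted p = 0.000129). Of 6 other galectins tested, none was called in C3-/- kidney, Lgals1 and Lgals12 rose in WT kidney, and none was called between the genotypes after glycerol. Of all genes 3.68% rose in C3-/- kidney, 12.5% rose in WT kidney and 4.85% were lower in C3-/- than in WT kidney after glycerol. Within list 1, 1 galectin was higher in C3-/- kidney, 3 were higher in WT kidney and 2 were lower in C3-/- than in WT kidney after glycerol. The shares of all genes there were 12.4%, 26.7% and 14.6%. Lgals4 went the other way within list 1, with -1.27 ± 0.16 in WT kidney (limma, adjusted p = 3.28e-05). After glycerol it was higher in C3-/- than in WT kidney there (1.01 ± 0.19, limma, adjusted p = 0.00225). Of the other TIM family, Havcr2, an immune-cell checkpoint receptor, rose by 1.19 ± 0.27 in WT kidney (limma, adjusted p = 0.00447) and had -1.19 ± 0.27 in C3-/- relative to WT kidney after glycerol (limma, adjusted p = 0.00934). Of 4 other SIBLING and lipocalin genes tested, none was called in C3-/- kidney and 2 fell in WT kidney (Apom and Ptgds), against 13.3% of all genes. Within list 1 Rbp4 rose in C3-/- (1.77 ± 0.36, limma, adjusted p = 0.00434) and in WT kidney (1.01 ± 0.32, limma, adjusted p = 0.017). Apom fell there in C3-/- (-1.21 ± 0.33, limma, adjusted p = 0.0186) as in WT kidney. Ptgds was higher in C3-/- than in WT kidney after glycerol within list 1 (1.02 ± 0.27, limma, adjusted p = 0.0145).

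A list of 22 further injury genes gave 5 that rose in C3-/- kidney (Cdkn1a, Gdf15, Krt20, Sox9 and Timp1) and 14 that rose in WT kidney, against 3.68% and 12.5% of all genes. After glycerol 10 were lower and 1 higher in C3-/- than in WT kidney, against 4.85% and 6.38% of all genes. Within list 1, 13 rose in C3-/- kidney, 15 rose in WT kidney and 11 were lower in C3-/- than in WT kidney after glycerol. The shares of all genes called there were 12.4%, 26.7% and 14.6%. Sox9, a transcription factor of tubule repair, had 91.0, 57.4, 27.2 and 58.7 normalized counts in C3-/- glycerol kidney and 1202, 788, 891 and 2645 in WT glycerol kidney, a difference of -4.48 ± 0.43 (limma, adjusted p = 1.06e-05). Its difference in response was -4.86 ± 0.61 (limma, adjusted p = 0.00286). Gdf15, a stress-induced secreted factor, rose in both genotypes, by 3.6 ± 0.43 in C3-/- kidney (limma, adjusted p = 0.000254) and 2.76 ± 0.43 in WT kidney (limma, adjusted p = 0.00038), and the genotypes differed by -0.32 ± 0.43 after glycerol (limma, adjusted p = 0.704).

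The genes whose pattern over the 16 libraries was most like that of each member were found by the root-mean-square difference of log2 values, after the WT PBS mean of each gene was subtracted, among the 13772 genes whose mean normalized count was 50 or more. Nearest to Havcr1 were Krt20 (1.51 log2 units), Lcn2 (1.80) and Timp1 (1.84), so that Lcn2 was both a member and a neighbour. Nearest to Lcn2 were Vgf (0.93), Timp1 (0.95) and Mt2 (1.36), and nearest to Tnfrsf12a were the metallothionein Mt2 (0.53), Lrg1 (0.76) and Mt1 (0.80). Mt2 shared the high libraries of Tnfrsf12a, with 19172 in C3-/- replicate 1 and 34037 in WT replicate 4. Anxa2 was nearest to Cd14 (0.32), Cldn4 (0.35) and Ch25h (0.38), Spp1 to Slc34a2 (0.60), Tnfrsf23 (0.65) and Socs3 (0.65), and Clu to Slc25a24 (0.51), Msr1 (0.54) and Hpcal4 (0.54). Among the genes close to Lgals3 were Eif4ebp1 (0.31) and Trpv6 (0.37). Between members, Clu and Anxa2 lay 0.76 apart, Lgals3 and Spp1 0.81, and Havcr1 and Anxa2 4.71.

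Markers of other cells moved beside these results. Macrophage markers, 12 of 12 measured, summed to 4226 to 7398 normalized counts in C3-/- glycerol libraries and 4868 to 7065 in WT glycerol libraries, against 3827 to 4916 in C3-/- PBS libraries and 4482 to 4899.7 in WT PBS libraries. Fibroblast markers, 4 of 4, summed to 1946 to 4896 and 6655 to 13064 in C3-/- and WT glycerol libraries, and to 2148 to 3010.5 and 3224 to 5931 in C3-/- and WT PBS libraries. Macrophages also express Spp1 and Lgals3, and the part of these cells in the results was not tested. The fibroblast sums did not overlap between the genotypes in either treatment, while the macrophage sums did in both. Of the fibroblast markers, Col1a1 and Col3a1 did not overlap between the genotypes in either treatment, but Pdgfrb overlapped in both. Dcn overlapped after glycerol, with 371 to 671 in C3-/- and 334 to 734 in WT libraries. In WT kidney Dcn was lower after glycerol than after PBS (1029.7 to 1664), unlike the sum. The macrophage sum covers markers that differed in opposite directions after glycerol. Csf1r was higher in C3-/- kidney (2317 ± 838 against 975 ± 235 normalized counts in WT kidney, SD, n = 4 each; 1.21 ± 0.23, limma, adjusted p = 0.00348). Itgam (-2.97 ± 0.54), Ccr2 (-1.5 ± 0.31) and Mrc1 (-0.67 ± 0.20) were lower in C3-/- kidney, with adjusted p of at most 0.0438 by limma, and the other 8 of 12 were not called.

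For glycerol against PBS in C3-/- kidney the authors' deposited table lists a log2 fold change of 0.58 for Clu (adjusted p = 0.479), 0.67 for Anxa2 (adjusted p = 0.0912) and 2.02 for Spp1 (adjusted p = 5.76e-05). For C3-/- against WT after glycerol the authors' deposited table lists -3.40 for Havcr1 (adjusted p = 7.73e-08), -0.82 for Lgals3 (adjusted p = 0.0224) and -0.58 for Tnfrsf12a (adjusted p = 0.59).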

How the data were processed

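The 16 libraries (4 groups of 4, assigned from the sample titles) were taken from 1 matrix of gene-level signal deposited by the authors, read counts normalized with DESeq2 per the submitters' processing notes. The submitters' processing notes name build GRCm38 and the tools R 3.6.1, STAR 2.7.1 and DESeq2, and the deposited matrix is named for Ensembl release 96. Which program counted reads, and whether by strand, is not given in the sources. The authors also deposited 3 tables of log2 fold changes with p-values, whose other statistics are scores, per the file headers. In each library 1.0% to 2.39% of low values were whole multiples of the lowest (tolerance 0.01). Whole reads could therefore not be recovered, depth is unknown, and no counting interval is given; precision rests on the spread between libraries.

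The test was limma 3.58.1 (R 4.3.3) applied to log2(normalized count + 1) for 18035 genes with at least 10 in at least 4 libraries, with 1 coefficient per group over all 16 libraries, a mean-variance trend, two-sided moderated tests and Benjamini-Hochberg adjustment over all genes tested; calls are those with adjusted p under 0.05. On this scale the change of low genes is understated. Levels per kilobase used exon lengths of GENCODE M21. The fit was tested on simulated data.

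The members and gene lists were chosen with earlier results of these data known. Beside the 7 members, the text names up to 4 genes of each list with the smallest p in a comparison, a fixed set of binding partners, the 3 genes most like each member (for Lgals3 1 of them is not reported here), and Ddx3y and C3 as checks; where more genes of a list are named as the full set of a count, they were named after their values were seen. Alternatives were other pseudocounts, filters, scalings (trimmed mean of M-values, upper quartile, quantile), array weights, list and Y-linked terms, subsets and leaving out each library. Skeletal muscle markers were not analysed here.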

Additional observations from a re-analysis of the deposited data

Results flagged for a closer look

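In each of 28 groups of 4 values (7 transcripts in 4 groups) the highest or lowest library was set against the others, and 5 groups held a library whose gap to its nearest neighbour passed Dixon's 95% critical value for 4 samples. Chance flags about 1 in 20 such groups. Tnfrsf12a was far above the rest in C3-/- glycerol replicate 1 (19468 normalized counts) and in WT glycerol replicate 4 (25092), both list 2 libraries. Anxa2 was far below the rest in C3-/- glycerol replicate 3 (1367), the remaining list 2 library. Lcn2 was high in WT PBS replicate 2 (105). Spp1 was low in C3-/- PBS replicate 4 (21164), a library that was lowest of its group for 4 of 7 members and highest for 3. It was the 1 library of its group that carries Ddx3y (1396 normalized counts).

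The glycerol response of Anxa2 differed between the genotypes by a test of the difference itself, at -2.21 on the log2 scale (C3-/- minus WT; limma, adjusted p = 0.0214), with every WT glycerol library above every C3-/- glycerol library.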

How the results depend on the processing

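Over 31 alternative settings, 1078 member results gave 1001 on the same side of the threshold, 36 with a call lost and 41 with a call gained. The 1001 include uncalled results whose sign changed. A called direction was turned round in 0 results, and the causes were not tested. The number of members with a called difference in response, 1 with all libraries, was 5 within list 1, 4 with list as a term, 4 with list and Y-linked transcripts as terms, 6 with array weights and 0 among libraries with Y-linked transcripts (a setting chosen after seeing the data), and 0 to 3 when 1 library was left out; it was 0 without WT glycerol replicate 1, C3-/- PBS replicate 1, 2 or 3, or any WT PBS library, 2 without C3-/- glycerol replicate 3 or 4, and 3 without C3-/- glycerol replicate 1 or WT glycerol replicate 4. Members called higher in C3-/- kidney after glycerol numbered 0 among libraries with Y-linked transcripts, where 1 PBS library remained. Members called lower in C3-/- kidney after glycerol numbered 2 with only the 2 groups compared, against 0.81% of genes. For the difference in response, the share of all genes called lower was 0.216% with all libraries, 5.42% within list 1 and 3.34% with list as a term. It was 3.79% with list and Y-linked transcripts as terms, 8.83% with array weights and 0.0721% to 0.66% when 1 library was left out. After PBS, with all libraries 0 members were called, and 0 with list and Y-linked transcripts as terms. In that comparison 1 was higher within list 1, against 9.29% of genes, and 1 with only the 2 groups compared, against 12.5%. With array weights 3 were higher and 1 lower, against 19.3% and 18.8% of genes. Same-numbered libraries did not deviate together (correlations from -0.69 to 0.38 over 16 pairs, median -0.01), so the numbers do not pair them; with replicate number as a block Spp1 in C3-/- kidney lost its call (1.81, limma, adjusted p = 0.0587). Quantile normalization also ended that call (adjusted p = 0.123). All 7 WT calls held in each setting. Depth is unknown, and Havcr1 in PBS kidney rests on values below 100.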
